A study of Homo sapiens with 4 samples.

Results

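Small nucleolar RNA host genes are genes whose introns carry small nucleolar RNAs (snoRNAs). They were taken here as every gene symbol made of SNHG and a number, together with GAS5, and 29 of the 59050 symbols in the deposited counts met this rule. The data were 4 poly(A)-selected RNA libraries labelled HepG2, a human cell line from a liver tumour. The 2 untreated libraries (0 h) carry the title word nop53, and the other 2 were of cells given doxorubicin, a DNA-damaging drug, at 1 µg/ml for 24 h to induce p53, the transcription factor of the DNA damage response. The treated group was taken from the title word p53 and the protocol, since the treatment tag of those libraries reads p53-miRNA and does not name the drug. One line and one dose were used, and nothing in the labels says whether replicates came from separate cultures, so the p-values measure only the spread between these libraries. In these bulk libraries, fewer cells of a kind and less RNA per cell cannot be told apart. No untreated library at 24 h was among them, so the drug and the time cannot be told apart either.

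A host transcript is spliced, and the snoRNA is trimmed out of the freed intron. C/D box snoRNAs guide methylation of ribosomal RNA, H/ACA box snoRNAs guide its pseudouridylation, and small Cajal body RNAs (scaRNAs) guide the same changes in the RNAs of the spliceosome. Many hosts begin with a run of pyrimidines, as ribosomal protein genes do, and many of their spliced RNAs are degraded by nonsense-mediated decay, so the steady level of a host RNA is not a measure of the snoRNA it yields.

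The libraries held between 27572740 and 36272180 counts. Untreated replicate 2 stood apart from the other 3: across the 17479 genes tested, its correlation of log2 CPM (the count over the total of the library, scaled to 1000000) with each of them was between 0.883 and 0.887, and the others correlated with each other at 0.975 or more. The fold changes of the members are therefore given with and without it. The 10 hepatocyte markers together reached between 0.965 and 5.92 CPM, and ALB, which encodes serum albumin, had at most 3 counts in any library, so the labelled liver origin was not borne out by these markers. FGB, a fibrinogen chain gene, had 7, 5, 106 and 70 counts in untreated replicates 1 and 2 and doxorubicin replicates 1 and 2, the order used throughout, and HNF4A, a liver transcription factor gene, had 21, 8, 66 and 33. The 7 squamous epithelial markers summed to between 1183 and 1951 CPM, nearly all of it from KRT17 and SFN, while KRT5, KRT6A, TP63 and DSG3 had at most 13 counts each, so most of that list was near 0. The 6 fibroblast markers summed to 226 and 169 CPM in untreated and 283 and 284 CPM in doxorubicin libraries, and COL1A2 had at most 2 counts. LUM, a matrix proteoglycan gene, had 65.4, 49.3, 135 and 163 CPM, and DCN, named after its values were seen, had 17, 18, 264 and 189 counts. FGB, LUM and DCN were thus higher in both doxorubicin libraries. Their log2 fold changes of doxorubicin over untreated were 3.76, 1.22 and 3.59, or 3.71, 1.04 and 3.80 without untreated replicate 2. Of the 4 tested hepatocyte markers, 2 were above 0 with all libraries and 2 below. AFP, with 6, 43, 16 and 11 counts, had -0.99, or 1.24 without that library. TF, with 0, 47, 1 and 13 counts, had -1.86 and no value without it. Fibroblast markers other than LUM and DCN did not follow them. COL1A1 had 84.4, 46.4, 79.2 and 64.3 CPM (log2 fold change -0.02, or -0.38 without that library). COL3A1 had 70.0, 69.1, 55.8 and 46.0 CPM (-0.60 in both fits), and PDGFRB had -0.08, or -0.29. Of the 5 tested fibroblast markers, 2 were above 0 and 3 below in each fit. The 6 haematopoietic markers summed to 1.38 and 17.3 CPM in untreated and to 0.874 and 1.05 CPM in doxorubicin libraries, so they were highest in untreated replicate 2. Most of this was CD14, with 41, 482, 28 and 27 counts, and PTPRC had 3, 12, 1 and 0. The part of these cell markers in the results was not tested. CDKN1A, the p21 gene that p53 activates, had 380 and 866 CPM in untreated and 1003 and 880 CPM in doxorubicin libraries, and MDM2, the ubiquitin ligase gene of p53, had 43.0 and 32.1 CPM, then 54.8 and 56.6 CPM.

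All 29 genes were matched to GENCODE release 44 (GRCh38), and all are annotated as long non-coding RNAs. Inside 28 of them, 140 snoRNA and scaRNA genes of that release were matched, 130 of which have a row in the counts. Of the 29 genes, 11 hold C/D snoRNAs, 10 hold H/ACA snoRNAs, 2 hold both, 4 hold scaRNAs, and 2 (GAS5 and SNHG28) could not be put in a class this way. No snoRNA entry was matched inside GAS5, which does not show that it hosts none. The entry inside SNHG28 has no class in its name. The sequences below are some of the snoRNAs of SNHG3, SNHG12, SNHG25 and SNHG29 whose counts are described further on (GENCODE release 44, GRCh38, 5′ to 3′). Capitals mark the box C TGATGA within the first 20 bases and the box D CTGA within the last 15 in C/D snoRNAs, which 65.3% and 87.3% of the 314 annotated SNORD genes hold. In H/ACA snoRNAs they mark the ACA within the last 10 bases, which 82.2% of the 214 annotated SNORA genes hold.
SNORA73A: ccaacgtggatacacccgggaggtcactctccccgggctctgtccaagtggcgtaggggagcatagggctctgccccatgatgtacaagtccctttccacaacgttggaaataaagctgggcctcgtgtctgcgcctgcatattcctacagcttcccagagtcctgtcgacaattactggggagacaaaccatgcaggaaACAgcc
SNORA73B: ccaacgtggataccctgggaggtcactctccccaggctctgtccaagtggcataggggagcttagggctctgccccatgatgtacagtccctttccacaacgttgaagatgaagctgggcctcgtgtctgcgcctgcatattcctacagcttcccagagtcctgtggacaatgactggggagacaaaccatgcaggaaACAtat
SNORA61: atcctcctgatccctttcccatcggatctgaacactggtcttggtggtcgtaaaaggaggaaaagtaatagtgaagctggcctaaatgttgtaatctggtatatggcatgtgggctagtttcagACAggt
SNORD49A: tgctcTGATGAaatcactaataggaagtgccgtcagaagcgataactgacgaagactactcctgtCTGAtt
SNORD65: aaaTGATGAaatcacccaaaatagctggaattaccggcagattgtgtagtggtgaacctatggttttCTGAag
SNORD104: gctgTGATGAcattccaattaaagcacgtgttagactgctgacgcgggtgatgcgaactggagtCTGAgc

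SNORA73A and SNORA73B lie in SNHG3 on the plus strand (chr1:28507366-28507571 and chr1:28508559-28508762), and SNORA61 lies in SNHG12 on the minus strand (chr1:28579764-28579893). SNORD49A (chr17:16440036-16440106) and SNORD65 (chr17:16441226-16441298) lie in SNHG29, and SNORD104 (chr17:64146083-64146152) lies in SNHG25, all on the plus strand.

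The first bases of a host show the pyrimidine start. A C followed by 4 bases that are each C or T stood at the annotated start in 6 of the 25 members with a promoter entry in RefSeq (GRCh38.p14): SNHG4, SNHG5, SNHG12, SNHG18, SNHG19 and SNHG32. Of all 35116 promoters in that table, 4.07% had such a start. The first 30 bases of the 4 that were tested follow, with the unbroken pyrimidine run in capitals, for SNHG4 (chr5:139274101-139274130, plus strand), SNHG5 (chr6:85678704-85678733, minus), SNHG12 (chr1:28581844-28581873, minus) and SNHG19 (chr16:2155329-2155358, minus).
SNHG4: CCCTTTCCCCTCCggcctctgccggtgctg
SNHG5: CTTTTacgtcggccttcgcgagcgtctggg
SNHG12: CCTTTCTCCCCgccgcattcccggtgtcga
SNHG19: CTTTTCggggtcgagtccgagggggaagag

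The annotated start is a single position, and other starts were not examined. The 4 genes had log2 fold changes of doxorubicin over untreated of -0.07 (SNHG4), 0.37 (SNHG5), -0.07 (SNHG12) and -0.54 (SNHG19), or -0.73, 0.15, -0.33 and -0.26 without untreated replicate 2, so they stood on both sides of 0 in both fits.

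Of the 29 members, 25 passed the filter on low counts. SNHG18 had 0 counts in every library. SNHG27 had 0, 1, 0 and 1 counts, and SNHG22 had 4, 14, 9 and 8. SNHG32, in the major histocompatibility region of chromosome 6, had 3, 1, 0 and 0 counts. Neighbouring genes of that region, looked up after its values were seen, were also near 0: RPS18, a ribosomal protein gene that cells in general use, had 10, 2, 1 and 1 counts. The near-0 counts of SNHG32 may therefore not reflect its level, and how reads of this region were assigned was not tested. A level of 3 counts was 0.0827 to 0.109 CPM in these libraries.

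The 29 members together took 1367 and 1098 CPM in untreated and 1599 and 1644 CPM in doxorubicin libraries. SNHG29, GAS5 and SNHG6 made up 58.7%, 48.8%, 64.1% and 65.7% of these sums. Without SNHG29 and GAS5 the sums were 701 and 673 CPM, then 730 and 738 CPM, so most of the gap between the groups' sums lay in those genes. These sums rest on library totals, without the TMM scaling factors of 0.944, 0.951, 1.02 and 1.09 that the fold changes use. The factors are higher in the doxorubicin libraries and would lower their sums. Per kilobase of annotated exon, the mean levels were 86.7 CPM for SNHG29, 76.1 for SNHG6, 64.4 for SNHG19 and 59.6 for GAS5. The ranges over libraries of each of these overlapped that of the next in order, so the order among them was within their spread. SNHG30 (25.5 CPM per kilobase), SNHG1 (24.6), SNHG3 (17.8) and SNHG7 (17.1) came next.

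**Figure D1:**
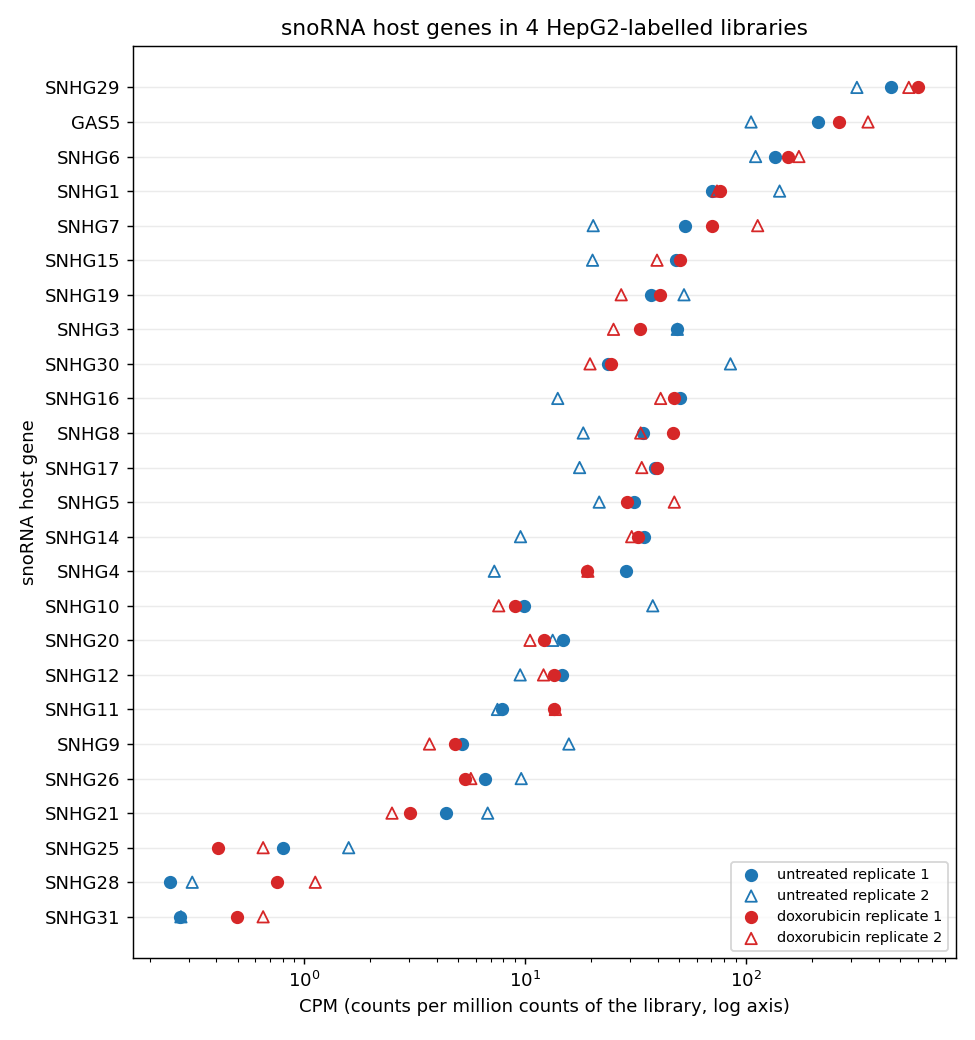
CPM (log axis) of the 25 tested host genes in each library, ordered by mean CPM, with untreated libraries in blue and doxorubicin libraries in red, and replicate 2 as open triangles. The open blue triangle of untreated replicate 2 lies outside the other 3 libraries in 22 genes, below them in 13 and above them in 9.

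In the edgeR quasi-likelihood test of doxorubicin against untreated libraries, 0 of the 25 tested members had an adjusted p under 0.05 (Benjamini-Hochberg over all 17479 genes) and also a log2 fold change of 1 or more in either direction, as did 0.0% of all genes. Their adjusted p-values ran from 0.773 to 0.978 (edgeR quasi-likelihood, Benjamini-Hochberg). Without adjustment, 0 members had a p under 0.05, against 4.39% of all genes, and the lowest member value was 0.0522, for SNHG28. DESeq2 called 0 members and 0.509% of genes, with 5 members and 1275 of the 17479 genes under an unadjusted p of 0.05. The exact test of edgeR called 0 members and 0.217% of genes, with SNHG10 the 1 member among 980 genes under an unadjusted p of 0.05. Under a block on replicate number, the quasi-likelihood fit called 0 members and 0.114% of genes, with SNHG7 the 1 member among 1073 such genes. No member passed the thresholds in these 4 tests, which with 2 libraries a group does not show that its level was the same, and the values that follow are descriptions. The log2 fold change was above 0 in 13 members (50.8% of all genes were) and below 0 in 12, with a median of 0.22 (0.01 over all genes). At least 1 in size were 7 members (28.0%), against 19.2% of all genes.

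Both doxorubicin libraries were above both untreated ones in 7 members (28.0%, against 30.3% of all genes): GAS5, SNHG6, SNHG7, SNHG11, SNHG28, SNHG29 and SNHG31. Both were below in 7 others (28.0%, against 11.5%): SNHG3, SNHG9, SNHG10, SNHG20, SNHG21, SNHG25 and SNHG26. In the remaining 11 the groups overlapped. The upper share was near that of all genes and the lower was above it. No test was made of either share, and the members were chosen with results of these data known. With TMM-scaled and RLE-scaled CPM, the members wholly higher were 7 in each, and those wholly lower were 8 and 10. The shares of all genes under these scalings are not given here.

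Among C/D hosts, SNHG29 (chromosome 17, 16438767 to 16480249, plus strand), the most abundant member and host of SNORD49A, SNORD49B and SNORD65, had 454, 319, 604 and 548 CPM. Both doxorubicin libraries were above both untreated ones, with a log2 fold change of 0.42 (SE 0.31), or 0.20 (SE 0.22) without untreated replicate 2. SNHG6, host of SNORD87, had 136, 111, 156 and 174 CPM (log2 fold change 0.26, SE 0.30), or 0.13 (SE 0.23) without that library. SNHG1 (chromosome 11, 62851978 to 62855953, minus strand), whose introns carry SNORD22 and 5 other named C/D snoRNAs, had 70.5, 142, 76.8 and 74.2 CPM. Here untreated replicate 2 alone was high and the other 3 libraries nearly coincided. Its log2 fold change was -0.65 (SE 0.43), and -0.05 without that library.

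SNHG30, host of SNORD7, had the same shape with 23.9, 85.3, 24.6 and 19.7 CPM. Its log2 fold change of -1.45 (SE 0.65) became -0.25 (SE 0.26) without untreated replicate 2. SNHG14 (chromosome 15, 24978583 to 25420336, plus strand), the long transcript of the imprinted Prader-Willi region that runs antisense into UBE3A, had the reverse shape with 34.5, 9.56, 32.4 and 30.5 CPM. Untreated replicate 2 was low and the other 3 lay close together, and its log2 fold change was 0.35 (SE 0.64), or -0.28 without that library. SNHG16, host of the SNORD1 snoRNAs, had 50.5, 14.1, 47.5 and 41.2 CPM (log2 fold change 0.30, SE 0.64), or -0.33 (SE 0.24) without it.

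SNHG5, host of a SNORD50 snoRNA, had 31.1, 21.7, 29.1 and 47.5 CPM, and its groups overlapped (log2 fold change 0.37, SE 0.42, or 0.15, SE 0.25, without untreated replicate 2). SNHG19, host of SNORD60, had 37.2, 52.6, 41.0 and 27.3 CPM, and SNHG26, host of SNORD93, had 6.62, 9.63, 5.36 and 5.69 CPM. SNHG26 was lower in both doxorubicin libraries (log2 fold change -0.71, SE 0.48), and had -0.41 (SE 0.32) without untreated replicate 2. The groups of SNHG19 overlapped (log2 fold change -0.54, SE 0.42), and it had -0.26 (SE 0.25) without that library. The median log2 fold change of the 9 tested members put in the C/D class, which leaves out GAS5, was 0.26, and -0.25 without untreated replicate 2.

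Of the H/ACA hosts, SNHG3 (chromosome 1, 28505980 to 28510892, plus strand) yields SNORA73A and SNORA73B, the U17 snoRNAs that act in the cutting of the ribosomal RNA precursor. SNHG3 had 48.9, 49.0, 33.3 and 25.2 CPM. The untreated libraries were level, unlike those of most members, and both doxorubicin libraries lay below them. Its log2 fold change was -0.89 (SE 0.37), and -0.88 (SE 0.24) without untreated replicate 2, which gave it an adjusted p of 0.00883 (edgeR quasi-likelihood, Benjamini-Hochberg), the only member under 0.05 there, though under the fold threshold. Of all genes fitted there, 6.51% had an adjusted p under 0.05 at any fold. SNHG3 shares 214 exonic bases with RCC1, a gene on the same strand. Reads of these bases may have been counted for either gene or for neither. The log2 fold change of RCC1 was -0.27, or -0.74 without untreated replicate 2.

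SNHG7 (chromosome 9, 136721366 to 136728184, minus strand), host of SNORA17A and SNORA17B, had 53.3, 20.4, 70.1 and 113 CPM. The doxorubicin libraries were above both untreated ones, which were themselves 2.61-fold apart. Its log2 fold change was 1.14 (SE 0.55), and 0.63 (SE 0.24) without untreated replicate 2. SNHG11 (chromosome 20, 38446343 to 38450940, plus strand), host of SNORA60 and SNORA71E, had 7.91, 7.51, 13.6 and 13.7 CPM. Its replicates lay close together in both groups, and its log2 fold change was 0.67 (SE 0.43), or 0.64 (SE 0.30) without untreated replicate 2.

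SNHG4 (chromosome 5, 139274102 to 139284899, plus strand), host of SNORA74A, had 28.6, 7.27, 19.0 and 19.3 CPM. The doxorubicin libraries lay between the untreated ones, which were 3.94-fold apart, the widest untreated gap among the 25 tested members. Its log2 fold change was -0.07 (SE 0.68), and -0.73 (SE 0.26) without untreated replicate 2. SNHG9, a short gene on chromosome 16 that hosts SNORA78, had 5.18, 15.8, 4.81 and 3.70 CPM (log2 fold change -1.44, SE 0.68), or -0.42 without untreated replicate 2. SNHG8, host of SNORA24, had 34.4, 18.4, 46.7 and 33.5 CPM, and SNHG15, host of SNORA9, had 48.3, 20.3, 50.3 and 39.7 CPM. In SNHG8, SNHG15 and SNHG17 (38.9, 17.7, 39.5 and 33.8 CPM, host of SNORA71 snoRNAs), untreated replicate 2 was the lowest library and the other 3 were within 1.5-fold. Their log2 fold changes were 0.45 (SE 0.47), 0.24 (SE 0.52) and 0.22 (SE 0.49), or 0.08, -0.24 and -0.23 without untreated replicate 2. SNHG31, host of SNORA70I, had 10, 8, 17 and 18 counts (log2 fold change 0.88, SE 0.62), or 0.89 (SE 0.74) without it.

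Among hosts of both classes, SNHG12 had 14.7, 9.52, 13.6 and 12.1 CPM and its groups overlapped (log2 fold change -0.07, SE 0.46), or -0.33 (SE 0.28) without untreated replicate 2. SNHG25, a short gene of 2 exon blocks, had only 0.80, 1.59, 0.41 and 0.65 CPM (log2 fold change -1.32, SE 0.68), or -0.76 (SE 0.59) without that library. Each of the 3 tested scaRNA hosts was lower in both doxorubicin libraries. SNHG10 (chromosome 14, 95521943 to 95534889, minus strand), host of SCARNA13, had 9.95, 38.0, 9.06 and 7.62 CPM, and its log2 fold change of -1.67 (SE 0.71) shrank to -0.40 (SE 0.30) without untreated replicate 2. SNHG21, host of SCARNA15, had 4.41, 6.79, 3.03 and 2.50 CPM (log2 fold change -1.16, SE 0.54), or -0.81 (SE 0.36) without it. SNHG20, host of SCARNA16, had 14.8, 13.4, 12.3 and 10.6 CPM (log2 fold change -0.46, SE 0.42), or -0.52 (SE 0.28). The difference of SNHG20 was thus about the same in both fits and that of SNHG21 somewhat smaller in the second, while that of SNHG10 rested mostly on untreated replicate 2.

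GAS5 (chromosome 1, 173858559 to 173868882, minus strand), named for its accumulation in growth-arrested cells and known to bind the glucocorticoid receptor, had 212, 106, 266 and 358 CPM. Both doxorubicin libraries were above both untreated ones, which differed 2.00-fold. Its log2 fold change was 0.81 (SE 0.42), and 0.41 (SE 0.22) without untreated replicate 2, with an adjusted p of 0.305 (edgeR quasi-likelihood, Benjamini-Hochberg). SNHG28 had 9, 9, 26 and 31 counts and the largest positive log2 fold change, 1.58 (SE 0.64), or 1.74 (SE 0.71) without untreated replicate 2. It was the only member at least 1 in size in both fits, at fewer than 2 CPM in every library. SNHG28 shares 972 exonic bases with SLAMF8, a gene on the opposite strand, which had 1, 9, 26 and 12 counts. Strand use in counting is not stated, so reads of the shared bases may have been counted for either gene or for neither, which was not tested.

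**Figure D2:**
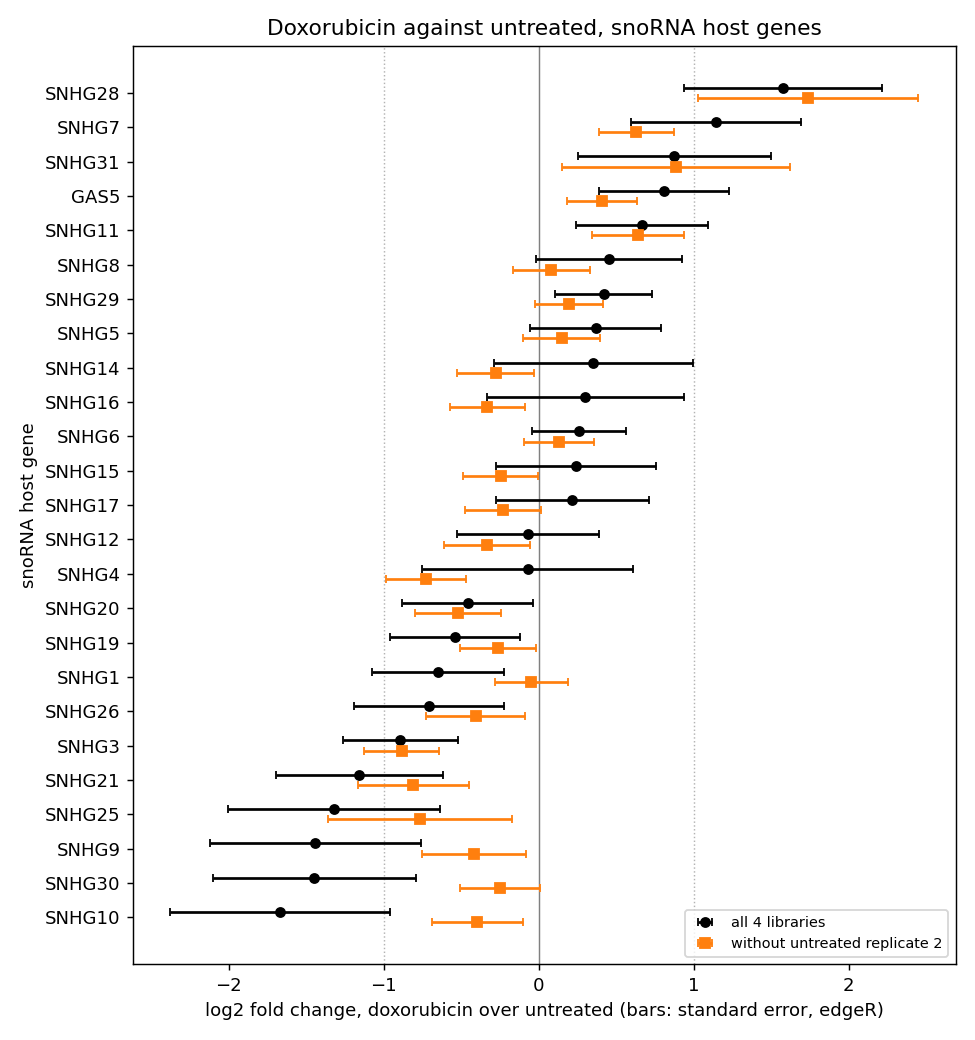
log2 fold change of doxorubicin over untreated (x axis) with its standard error for the 25 tested host genes, with all 4 libraries (black circles) and without untreated replicate 2 (orange squares). Dotted lines mark a log2 fold change of 1 in either direction. SNHG10, SNHG30 and SNHG9 move from -1.67, -1.45 and -1.44 to -0.40, -0.25 and -0.42, while SNHG3, SNHG11 and SNHG28 barely move.

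Without untreated replicate 2, 0 of the 25 members were called by the edgeR quasi-likelihood test, against 4.44% of the 18356 genes tested. In this fit the lone untreated library is assumed to vary as the doxorubicin ones do. At an unadjusted p under 0.05 stood 6 members (24.0%, against 19.1% of genes): SNHG3, SNHG4, SNHG7, SNHG11, SNHG21 and SNHG28. The log2 fold change was above 0 in 9 members and below 0 in 16, whereas 53.3% of all genes were above 0, and the median was -0.25 (0.04 over all genes). SNHG14, SNHG15, SNHG16 and SNHG17 changed sign (16.0% of members, against 34.5% of genes). Without untreated replicate 1 instead, 13 of 26 members were called, against 44.4% of 19606 genes. The count of members called thus went with which untreated library stood for the control.

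**Figure D3:**
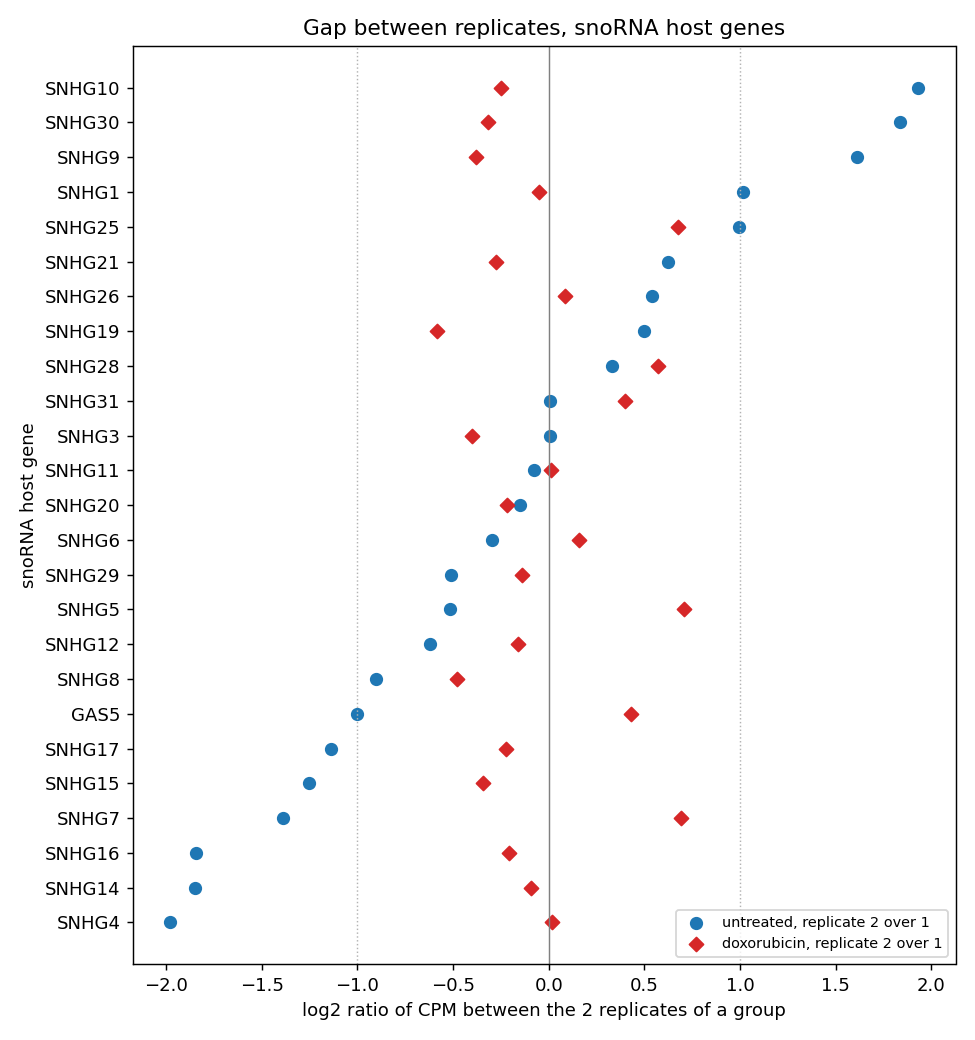
log2 ratio of CPM between replicates 2 and 1 within the untreated (blue circles) and doxorubicin (red diamonds) groups for the 25 tested host genes. Untreated gaps reach past the dotted lines at 2-fold in 11 genes, and the doxorubicin gaps stay within 0.71 of 0.

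The untreated libraries were at least 2-fold apart in 11 members (44%, against 46.0% of all genes), and the doxorubicin libraries in 0 (against 6.1%). The median size of the log2 gap of members was 0.90 between untreated and 0.28 between doxorubicin libraries, close to the 0.89 and 0.25 of all genes. Untreated replicate 2 was the lowest of the 4 libraries in 13 members (52.0%, against 45.0%) and the highest in 9 (36.0%, against 36.6%). Across the 25 members, the length of the longest annotated transcript had a Spearman rho of -0.40 with the log2 ratio of untreated replicate 2 over 1, and -0.31 across the 14471 tested genes with a length (83.3%). The genes share these libraries, so both are descriptions. Members lowest in untreated replicate 2 had a median longest transcript of 3241 bases, and members highest in it had 1504. The part of transcript length in the gap was not tested.

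Counts on the snoRNAs themselves were low in these libraries, which were selected for poly(A) tails that mature snoRNAs lack. Outside SNHG14, 47 snoRNA and scaRNA symbols had a row. Of the 21 that overlap annotated exons of their host, 20 had 0 counts in every library, and of the 26 with no base in host exons, 4 did. How reads that fall on both a snoRNA and a host exon were handled was not tested. A count of 0 for such a snoRNA therefore need not mean that no reads fell on it. In SNHG14, 77 of 83 rows were at 0 and the largest count was 3. In SNHG3, SNORA73A had 67, 69, 23 and 34 counts and SNORA73B had 65, 38, 30 and 53. Reads of these close copies can be split between them. SNORA73A was lower in both doxorubicin libraries (log2 fold change -1.33, SE 0.60), as its host was, while the groups of SNORA73B overlapped.

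SNORA61 of SNHG12 had 98, 15, 55 and 41 counts, and untreated replicate 2 was its lowest library, as it was for its host. In SNHG29, SNORD65 had 58, 13, 27 and 23 counts and SNORD49A had 26, 5, 28 and 10, also lowest in untreated replicate 2. Not all small RNAs followed their hosts. SNORD99, also in SNHG12, had 10, 15, 9 and 4 counts and was highest in that library. SNORA16A of SNHG12 was neither highest nor lowest there by CPM. SNORA17B had a log2 fold change of -0.57, against 1.14 for its host SNHG7. SNORD104 of SNHG25 had 137, 165, 155 and 67 counts, more in total than the other 13 named small RNAs with at least 10 counts in a library. SCARNA17 had 53, 110, 48 and 46 counts although its host SNHG22 had at most 14. Of these 14 small RNAs, untreated replicate 2 was the lowest in 6 and the highest in 4. The libraries were not made for small RNAs, and reads of unspliced introns cannot be told from mature snoRNAs here.

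Exon bases of 17 members are shared with another annotated gene, on the opposite strand in 12 and on the same strand in 8. The sources used here do not state whether strand was used in counting, so reads of genes on opposite strands may not have been told apart. On opposite strands, SNHG8 shares 2487 bases with PRSS12, SNHG6 shares 1488 with MCMDC2 and SNHG7 shares 1430 with DIPK1B. On the same strand, where strand cannot separate reads, SNHG20 shares 424 with SEC14L1 and SNHG4 shares 251 with MATR3. In 6 pairs of tested genes the member starts within 1000 bases of a neighbour on the other strand, without exon overlap. ZBTB37, a zinc finger gene that starts 87 bases from GAS5, had 8.35, 4.47, 9.79 and 10.5 CPM, and both genes were lowest in untreated replicate 2. RPS2, a ribosomal protein gene that starts 69 bases from SNHG9, had 2700, 4325, 2228 and 1981 CPM, and both were highest in it. SLC3A2, an amino acid transporter subunit gene beside SNHG1, had 1232, 1776, 1495 and 1198 CPM. GLRX5, an iron-sulphur cluster gene beside SNHG10, had 83.6, 150, 80.1 and 75.9 CPM, and each of these 2 pairs was highest in untreated replicate 2. The other 2 pairs, SNHG31 with BARD1 and SNHG19 with TRAF7, did not share an extreme in that library. Over all tested genes it was the lowest in 45.0% and the highest in 36.6%, so genes often share an extreme there. No test was made of the pairs.

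Other hosts and the snoRNA machinery were read from lists. Of the 3 tested lncRNA hosts outside the SNHG names, 0 were called by the edgeR quasi-likelihood test with all libraries (1 under an unadjusted p of 0.05) and 2 without untreated replicate 2. DANCR, host of SNORA26, had 66.9, 31.5, 41.0 and 27.0 CPM, and its log2 fold change of -0.68 was -1.12 without untreated replicate 2. EPB41L4A-AS1, named after its values were seen, had 14.2, 7.65, 25.2 and 43.2 CPM (log2 fold change 1.47, SE 0.51), or 1.11 (SE 0.27) in the smaller fit, so the 2 called genes moved in opposite directions there. ZFAS1, host of the SNORD12 snoRNAs, had 24.6, 21.2, 30.8 and 66.8 CPM (log2 fold change 0.92), or 0.83 without untreated replicate 2.

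Of 17 ribosomal protein genes that host snoRNAs, 0 were called in either fit (edgeR quasi-likelihood, with 2 under an unadjusted p of 0.05 with all libraries), 16 had a log2 fold change below 0 (median -0.56), and 17 did without untreated replicate 2 (median -0.34). RPS2 had -0.89 and RPL13A -0.53, or -0.50 and -0.20 without that library, and in 12 of the 17 genes untreated replicate 2 was the highest library. The 12 tested other coding hosts had 8 below 0 (median -0.21, or -0.36 without untreated replicate 2), with EEF2, the elongation factor gene, at -0.13 and HSPA8, a chaperone gene, at 0.01, or -0.34 and -0.53 without it.

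The 8 core proteins of snoRNA particles had 6 genes below 0 (median -0.33, or -0.34 with all 8 below 0 without untreated replicate 2). NOP56, a core C/D protein, had 254, 407, 241 and 227 CPM, and SNU13, which binds the C/D motif, had 208, 208, 186 and 173 CPM. Of 9 tested assembly factors, 7 were below 0 (median -0.26, or -0.36), with NOLC1 at -0.58 and RUVBL2 at -0.69 (-0.67 and -0.58 without untreated replicate 2). Of 14 nonsense-mediated decay factors, 8 were below 0 (median -0.23, or -0.16). UPF1, the helicase of that decay, had 244, 146, 225 and 232 CPM. EIF4A3, a subunit of the exon junction complex, had 223, 627, 180 and 182 CPM, high in untreated replicate 2 alone. None of these 31 tested genes was called with all libraries or without untreated replicate 2 (edgeR quasi-likelihood), and 1 had an unadjusted p under 0.05 with all of them.

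**Figure D4:**
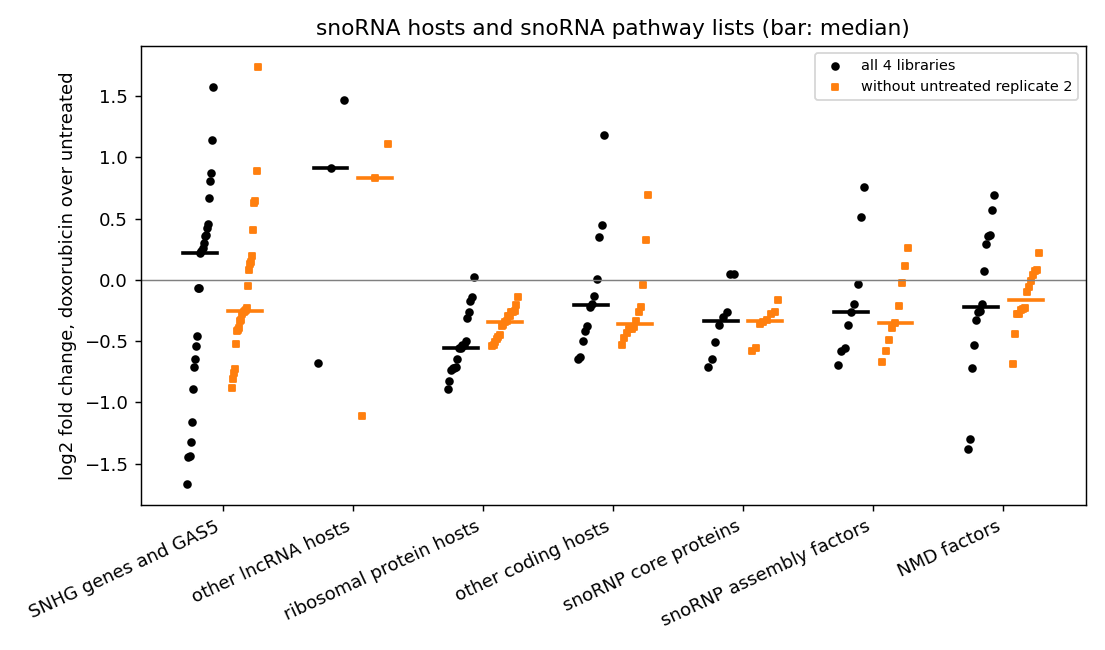
log2 fold change of doxorubicin over untreated (y axis) for each tested gene of the SNHG and GAS5 set and of 6 related lists, with all 4 libraries (black) and without untreated replicate 2 (orange), and bars at the medians. The SNHG and GAS5 median goes from 0.22 to -0.25, while that of the ribosomal protein hosts goes from -0.56 to -0.34 and stays below 0.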

How the data were processed

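The authors deposited raw counts per gene symbol for each library, made with HISAT2 and HTSeq per the labels on hg38, and the file headers name GENCODE release 31. The file layout is that of featureCounts, and strand use is not given in the sources used here. Poly(A) RNA was primed with random hexamers. CPM was computed as the count over the library's total. Genes kept by filterByExpr were tested with edgeR 4.0.16 (TMM, quasi-likelihood, prior count 0.125, R 4.3.3), and called at a Benjamini-Hochberg adjusted p under 0.05 with a log2 change of 1 or more either way, the thresholds of the study's methods. The form of this fit was settled after the earlier form of edgeR's quasi-likelihood fit had also been run. Fold changes rest on TMM scaling, and their standard error is the fold change divided by the root of its F. DESeq2 1.42.0, the exact test, other scalings and filters, a block on replicate number and leaving out each library were alternatives. The deviations of untreated replicate 1 and doxorubicin replicate 1 from their group means correlated at 0.0219. With 2 libraries a group and untreated replicate 2 standing apart, this value cannot tell whether the numbers pair the libraries.

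Names were drawn from all members, 2 treatment genes and the 2 most abundant genes of each list. They were also drawn from small RNAs inside members with at least 10 counts in a library, and from overlapping or head-to-head neighbours. Some other genes of the lists, and RPS18, were named outside this rule. SNORA70 was left out because 26 other annotated genes share its name. The members and lists were chosen with earlier results of these data known. Positions and snoRNA sequences come from GENCODE release 44 (GRCh38) and promoters from RefSeq (GRCh38.p14). The scripts were tested on simulated counts. The floor of 3 counts covers counting error only, while the standard errors also include the spread between libraries in the fit.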

Additional observations from a re-analysis of the deposited data

How the results depend on the processing

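With 2 libraries a group, an exact permutation test cannot go below a p of 0.333 (two-sided), and fits without a library assume that the lone one varies like the others. The count of all genes called (0) was 89 with DESeq2 and 38 with the edgeR exact test, and leaving out 1 library in turn gave 0 to 8697 (815 without untreated replicate 2 and 8697 without untreated replicate 1). With 0 called, 768 genes had an unadjusted p under 0.05 in the edgeR quasi-likelihood test, 798 with RLE factors, 800 with library size alone, 1543 without the filter, 591 with the filter at 1 CPM and 703 in the earlier form of the fit, an alternative chosen after seeing the data. The count of members called was 0 to 13 when 1 library was left out, their median log2 fold change -0.25 to 0.61, and the members with doxorubicin libraries wholly higher 8 to 15 and wholly lower 7 to 11. Non-overlap is easier to reach with fewer libraries. Without untreated replicate 2, 8 of the 25 members were wholly higher and 11 wholly lower, against 53.1% and 24.7% of all genes. The shares of all genes with another library left out are not given here. The values that differ most come from the fits without untreated replicate 1 or 2, and the cause was not tested. Library size alone moved the median of all genes to 0.17, that of members to 0.37, and the split of members to 15 above 0 and 10 below 0.

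The replicate block called 20 genes and 0 members, and with it SNHG4 had a log2 fold change of 0.23. Of 222 member values under settings that kept all libraries, 3 changed sign: this one, and SNHG4 (0.088) and SNHG12 (0.086) with library size alone. When 1 library was left out, 7 of 100 did: the range was -0.73 to 1.31 for SNHG4, -0.33 to 0.35 for SNHG12, -0.28 to 1.63 for SNHG14, -0.24 to 1.07 for SNHG15, -0.33 to 1.57 for SNHG16 and -0.23 to 0.97 for SNHG17. The cause was not tested.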
